A study of Mus musculus with 21 samples.

Results

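Dispersed translocations are here reads that join the Sμ bait to DNA on another chromosome and that fell in no recurrent place. Whether each such join was made in the cells or in preparing the library was not tested, and the shares and microhomologies below are those of the deposited junctions. They were taken as joins to any chromosome other than 12, after leaving out the 100-kb bins that held at least 8 joins and joins from at least 5 libraries. The rule used prey positions in all libraries together, so the low number of joins per bin is how the joins were chosen and is no result. It kept 18191 of 40530 joins (44.9%), or 96.6% of the 18834 joins to other chromosomes. The 643 joins left out lay in 24 recurrent bins of 8 to 293 joins. The 2 fullest bins held 293 and 71 joins and all others together 279, so values of this class weigh those 2 bins most. A library had as few as 10 joins in recurrent bins.

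Class switch recombination exchanges the antibody constant region by deletional joining of DNA double-strand breaks in 2 switch regions of the IgH locus. The breaks start from deamination of cytosine by AID, an enzyme that prefers short motifs such as AGCT, and loop extrusion by cohesin, halted at CTCF-bound elements (CBEs), brings distant switch regions together. End joining ligates the ends directly, after pairing of a few shared bases (microhomology), or with inserted bases. A switch region end that meets a break on another chromosome gives a translocation, the kind of lesion known from B cell lymphomas.

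The libraries came from CSR-HTGTS-Seq, which reads outwards from a fixed DNA stretch in Sμ (the bait) across the join into whatever was attached (the prey). CH12F3 cells are murine lymphoma B cells that change from IgM to IgA expression when stimulated, and all of them were stimulated for 72 h with anti-CD40, IL4 and TGF-β. All 5 groups share a deletion from Sμ to Sα on the non-coding IgH allele, so the bait is read from the coding allele. IaD-i3CBEc (n = 3) lacks Iα, the promoter and exon of germline transcription before Sα, and carries 3 CBEs inserted downstream of Cγ2a. IaD (n = 6) lacks Iα. i3CBEc-3'CBEsD (n = 3) carries the 3 CBEs and lacks the 3'CBEs, the CTCF sites beyond the constant genes. i3CBEc (n = 3) carries the 3 CBEs, convergent in orientation as the labels have it. CH12F3NCD (n = 6) is the starting line. The labels do not say whether libraries of a group are separate clones or cultures, so the spread between them may be technical.

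A library held 1180 to 3513 joins, of which 124 to 2622 were dispersed. Library 4 of IaD also contained the 3075 reads of libraries 5 and 6 of IaD, which were removed from it. Read names place the libraries in 8 sequencing runs. Run 490 holds all libraries of IaD-i3CBEc, libraries 4 to 6 of IaD and libraries 1 to 3 of CH12F3NCD, and no other run holds more than 1 group. Library 3 of i3CBEc-3'CBEsD stands apart from the rest in most measures below and has the fewest dispersed joins (124). Library 2 of that group has short prey alignments, with a median of 64 bases, against a median over libraries of 109. Repeats of the same prey position, strand and bait end within a library made up 127 dispersed joins (0.698%).

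The bait and 4 dispersed joins of CH12F3NCD are shown because the results turn on where the bait ended and what lay at the join. The bait read begins at the upper end of chr12:114664780-114664911 (mm9, minus strand), and its bases are counted from 1 there. Capitals in the bait mark stretches of last bait bases that were more frequent in dispersed joins than in joins within IgH. They are bases 33 to 38, 57 to 59, 94 to 98 and 113 to 114. Not all were common ends, since base 114 ended 0.541% of dispersed joins and unmarked base 50 ended 1.58% (means over libraries). In the joins, capitals mark the first 4 prey bases (direct join), the shared bases (microhomology) or the inserted bases (insertion). The example joins are the first of their kind by chromosome and position.
Bait: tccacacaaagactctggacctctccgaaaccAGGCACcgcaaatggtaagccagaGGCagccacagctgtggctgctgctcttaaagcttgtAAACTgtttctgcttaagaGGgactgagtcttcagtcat
Direct join: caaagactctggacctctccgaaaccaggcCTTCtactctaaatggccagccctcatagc
Microhomology of 2 bases: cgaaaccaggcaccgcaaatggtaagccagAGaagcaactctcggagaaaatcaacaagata
Microhomology of 4 bases: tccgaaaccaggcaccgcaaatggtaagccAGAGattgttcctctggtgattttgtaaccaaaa
Insertion of 2 bases: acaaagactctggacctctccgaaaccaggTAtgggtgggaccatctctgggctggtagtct
The prey of the direct join aligned to chr1:16533751-16533888 on the plus strand. Those of the microhomologies aligned to chr1:5803158-5803387 and chr1:4029320-4029472 on the minus strand, and that of the insertion to chr1:16295832-16295950 on the plus strand. The bait of these joins ended at base 36 (direct), base 57 (both microhomologies) and base 35 (insertion).

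Dispersed joins left the bait at other bases than the joins within IgH did. IgH joins are here those within 10 kb of the bait together with the acceptor joins, which lie 10 to 250 kb downstream of it on chromosome 12 and hold the downstream switch regions. Base 36 was the last bait base of 11.1% ± 2.11 of dispersed joins and of 0.975% ± 0.438 of IgH joins (SD, n = 21 libraries). The share ran from 4.84% through a median of 11.6% to 14.6% of dispersed joins, against 0.234%, 0.995% and 1.94% of IgH joins. The libraries of the 2 classes did not overlap, and base 36 was the commoner end among dispersed joins in 21 of 21 libraries. A limma fit to the difference within each library, over the 95 bases with at least 50 joins, gave 10.1 percentage points (SE 0.398, Benjamini-Hochberg adjusted p = 1.97e-16).

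At 69 of these 95 bases (72.6%) the classes differed in the same fit. Dispersed joins were more frequent at 24 bases (25.3%) and less frequent at 45 (47.4%). The last bait base counts any shared bases, and the count called with direct joins only is given in the closing section. Dispersed joins led by 4.27 percentage points at base 35 and 3.78 at base 34. Base 57 ended 6.39% of dispersed joins, against 3.35% of IgH joins. Base 59 ended 5.85%, against 2.98%. At base 97 the shares were 3.10% and 0.435%, and at base 98 they were 2.84% and 0.678%. The 4 stretches in capitals, each a run of at least 2 neighbouring bases called more frequent in this fit, together ended 57.5% of dispersed joins, 14.6% of IgH joins and 23.2% of joins in recurrent bins. No join in any class ended before base 33.

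The commonest end of IgH joins was rare among dispersed joins. Base 66, the A that opens the first AGCT of the bait (bases 66 to 69, with another at 87 to 90), ended 0.731% ± 0.378 of dispersed joins, against 5.53% ± 0.787 of IgH joins. Dispersed joins had 0.207% to 1.61% of their ends there and IgH joins 3.86% to 6.73%, without overlap. The difference was -4.80 percentage points (SE 0.185, limma adjusted p = 1.97e-16), and base 66 was the rarer end among dispersed joins in 21 of 21 libraries. Recurrent bins had 5.44% of their joins at base 66. Ends within either AGCT made up 4.55% of dispersed joins, 15.9% of IgH joins and 16.6% of joins in recurrent bins. By this measure the pooled joins of the recurrent bins, 293 of 643 from 1 bin, lay near the IgH joins, and the dispersed joins apart from both. Ends anywhere from base 62 to base 90 made up 16.8% of dispersed joins, 51.1% of IgH joins and 44.8% of recurrent ones.

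**Figure D1:**
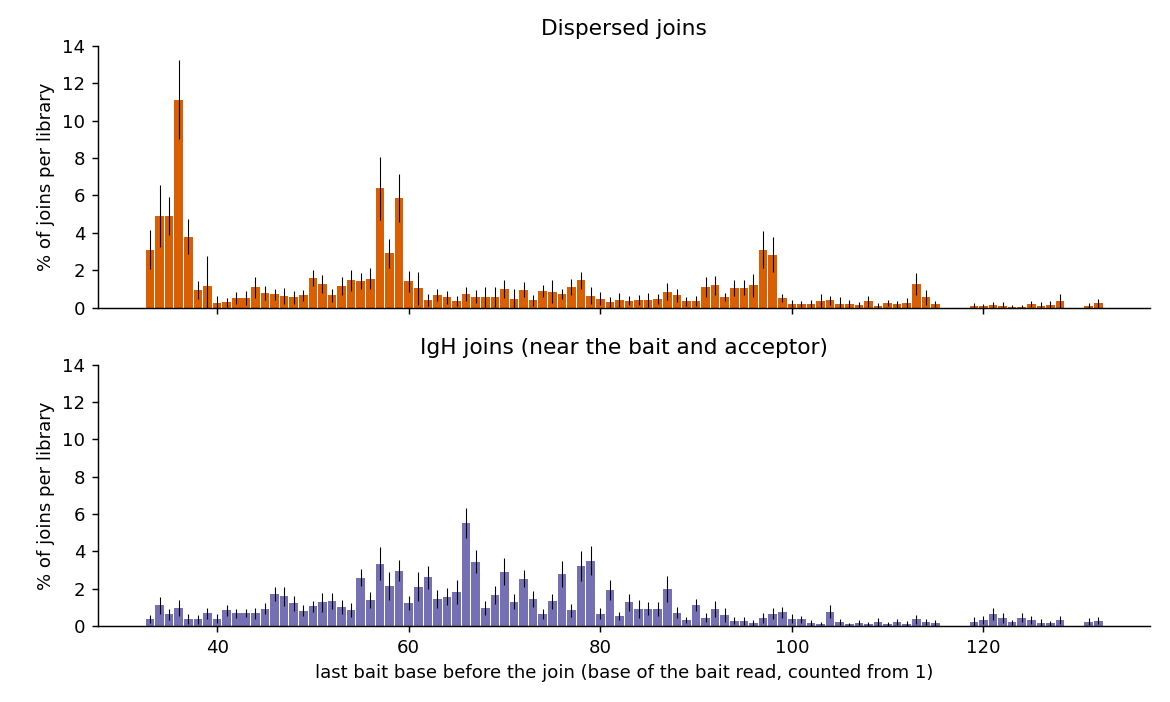
Share of joins by the last bait base before the join, for dispersed joins (top) and IgH joins (bottom), as the mean over 21 libraries with the SD as a line; bases with fewer than 50 joins are left out. Dispersed joins peak at base 36 (11.1%) and have further peaks at bases 57, 59, 97 and 98, whereas IgH joins peak at base 66 (5.53%).

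The preferred ends were common to the groups. The 4 stretches ended 52.9% ± 1.42 of dispersed joins in IaD-i3CBEc (SD, n = 3) and 58.5% ± 2.78 in IaD (SD, n = 6). They ended 44.1% ± 22.1 in i3CBEc-3'CBEsD (SD, n = 3), 58.5% ± 2.13 in i3CBEc (SD, n = 3) and 56.1% ± 2.46 in CH12F3NCD (SD, n = 6). The low mean of i3CBEc-3'CBEsD comes with its library 3 at 18.5%. No test was run on these shares, since the stretches were chosen from them.

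Over all bait ends, dispersed joins carried more microhomology than the 3 classes of join they were compared with, by an amount that varied along the bait. Among joins without inserted bases the mean microhomology was 2.39 ± 0.227 bases in dispersed joins and 1.68 ± 0.103 in acceptor joins (SD, n = 21 libraries). The difference of 0.709 bases (SD 0.223) was positive in 21 of 21 libraries. A sign-change permutation test gave p = 1e-05, the smallest that its 100000 resamples can give, and 1.5e-05 after Benjamini-Hochberg adjustment over 12 such tests. Dispersed joins also exceeded joins within 10 kb of the bait, by 0.573 bases in the mean (20 of 21 libraries, permutation test, adjusted p = 1.5e-05). Against the recurrent bins the difference was 0.722 bases (19 of 21 libraries, permutation test, adjusted p = 5.45e-05). Among joins ending in the 4 stretches, the difference to acceptor joins was -0.020 bases (21 libraries, permutation test, adjusted p = 0.783) and that to joins near the bait 0.245 bases (permutation test, adjusted p = 0.000274). The stretches were chosen from these data, and a bait end counts shared bases. Values by stretch are thus a description, and these tests decide nothing about the form of the join. Pooled over libraries, the mean in the stretches was 1.83 bases in dispersed joins and 1.73 in IgH joins. It was 1.99 and 1.66 at bases 33 to 38, 1.56 and 1.82 at bases 57 to 59, 1.99 and 1.44 at bases 94 to 98, and 0.759 and 1.90 at bases 113 to 114. Outside the stretches it was 3.18 and 1.73. The close means over the stretches together cover differences of either sign between them, and do not mean a like form of join. There 7 to 10 shared bases were present in 6.33% of dispersed joins and 0.670% of IgH joins. Joins with neither shared nor inserted bases made up 33.6% and 20.9%.

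The excess lay in long microhomologies. From 7 to 10 shared bases were present in 1863 dispersed joins (10.2%), against 0.724% of acceptor joins, 1.16% of joins within 10 kb of the bait and 2.18% of joins in recurrent bins. The share ran from 1.61% through a median of 10.7% to 17.1% of dispersed joins over the libraries, and from 0.215% through 0.728% to 2.12% of acceptor joins. It was higher in dispersed joins in 21 of 21 libraries, and apart from library 3 of i3CBEc-3'CBEsD, at 1.61%, every dispersed value lay above every acceptor value. Shorter microhomologies took similar shares, with 1 to 3 bases in 42.6% of dispersed joins and 45.0% of acceptor joins, and 4 to 6 bases in 11.8% and 10.3%. The deposited files hold no join with more than 10 shared bases, so longer ones were not measured.

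The long microhomologies used many parts of the bait. They comprised 420 different strings on 19 chromosomes, 179 of them seen at a single join. The commonest are given to show what was shared. ACCAGGC (bait bases 30 to 36) stood at 52 joins in 16 libraries, and its extensions ACCAGGCA and ACCAGGCAC at 28 and 42 joins. CTGTGGCTG (bases 68 to 76) stood at 31 joins, TGGCTGCT (bases 71 to 78) at 29 and AGCTTGTAAA (bases 87 to 96) at 29. These 6 strings covered 211 of the 1863 joins (11.3%). Long microhomology was unevenly spread along the bait. Of the dispersed joins with ends from base 62 to base 90, 25.5% had 7 to 10 shared bases, of all those outside the 4 stretches 15.5%, and of those in the stretches 6.33%. The same shares of IgH joins were 1.15%, 0.952% and 0.670%. From base 62 to base 90 the mean microhomology of dispersed joins was 3.96 bases.

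Joins with inserted bases were less frequent among dispersed joins. They made up 8.94% ± 5.09 of dispersed joins and 21.6% ± 1.92 of acceptor joins per library (SD, n = 21). The difference was -12.7 percentage points and negative in 20 of 21 libraries (permutation test, adjusted p = 1.5e-05). The exception was library 3 of i3CBEc-3'CBEsD, with 29.0% of its dispersed joins. Joins within 10 kb of the bait had 29.9% and recurrent bins 45.1%, and dispersed joins were lower than either in 21 of 21 libraries, by 20.9 and 36.2 points (permutation tests, adjusted p = 1.5e-05 for both). Short inserts made most of the gap, since 1 to 3 inserted bases were found in 1.74% of dispersed joins and 16.4% of acceptor joins, with dispersed joins lower in 21 of 21 libraries. Inserts of 14 to 25 bases went the other way, with 3.56% of dispersed joins and 1.37% of acceptor joins. The median insert had 14 bases in dispersed joins, 2 in acceptor joins, 3 near the bait and 8 in recurrent bins.

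**Figure D2:**
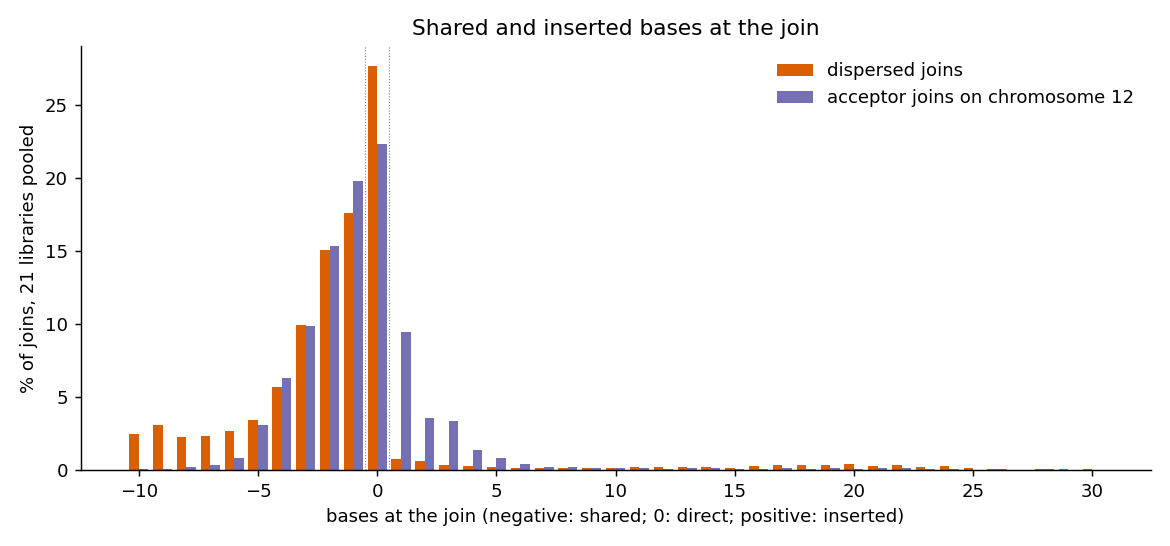
Bases at the join, as shared bases (negative), 0 for a direct join and inserted bases (positive), in percent of the dispersed joins and of the acceptor joins of 21 libraries pooled. Dispersed joins have a shelf at 7 to 10 shared bases (10.2% in all) that acceptor joins lack (0.724%), and few inserts of 1 to 3 bases (1.74%, against 16.4%).

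Direct joins, with neither shared nor inserted bases, were more frequent than any one length of microhomology or insert. They made up 27.6% ± 2.59 of dispersed joins and 22.4% ± 2.29 of acceptor joins (SD, n = 21 libraries), higher in 20 of 21 libraries by 5.25 percentage points (permutation test, adjusted p = 5.45e-05). The excess differed by bait end. Among joins ending in the 4 stretches it was 14.2 points (permutation test, adjusted p = 5.33e-05). Among joins ending outside them the difference turned to -2.94 points (permutation test, adjusted p = 0.00720). There the microhomology difference was 1.49 bases and the insertion difference -11.2 points (permutation tests, adjusted p = 2e-05 for both). The stretches were chosen from these data and a bait end counts shared bases, so this split is not independent of the form of the join. The mean bait end was base 61.9 in dispersed joins and base 69.9 in acceptor joins. That difference was -8.06 bases (0 of 21 libraries higher, permutation test, adjusted p = 1.5e-05). Outside the stretches it was -0.55 bases, which cannot be read as a test, since the stretches were themselves chosen by bait end.

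**Figure D3:**
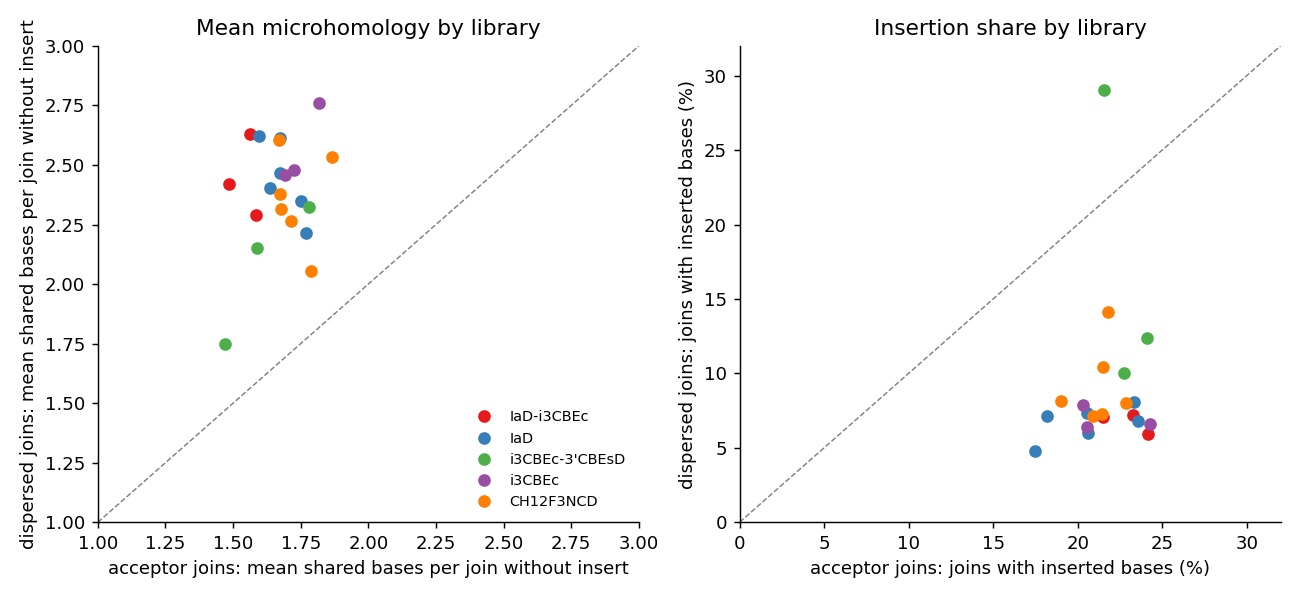
Mean microhomology (left, bases per join without insert) and share of joins with inserted bases (right, percent) of each library, with dispersed joins on the vertical axis and acceptor joins on the horizontal axis; the dashed line marks equal values and colours mark the groups. All 21 libraries lie above the line on the left and 20 of 21 below it on the right, the exception being library 3 of i3CBEc-3'CBEsD at 29.0%.

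On the prey side, the first bases after the join were not those of the sequence further in. Over 5027 direct dispersed joins, T stood at prey base 2 in 38.2% and at prey base 4 in 38.03%, against a mean of 27.5% at prey bases 21 to 40. G stood at base 4 in 12.7%, against 21.9%. At base 3, C was found in 33.8%, against 23.1%, and A in 14.7%, against 27.5%. T exceeded its level at bases 21 to 40 in 20 of 21 libraries at either base, and G at base 4 was below its level in 21 of 21. Values for plus- and minus-strand prey were close (38.2% each for T at base 2), and joins that ended outside the 4 bait stretches had T at base 2 in 40.6%. Direct acceptor joins, by contrast, had T at base 2 in 18.4%, against 22.6% at bases 21 to 40. These values are a description, noticed in the data, with no test. Base 1 is given apart because a direct join cannot start with the bait's own next base. C stood there in 45.0% of direct dispersed joins and T in 9.35%, against 23.1% and 27.5% at bases 21 to 40. Direct acceptor joins had C at base 1 in 16.5% and T in 35.5%, against 19.2% and 22.6%. How much of this follows from that limit was not tested. The prey itself had 45.6% G and C in dispersed joins and 54.2% in acceptor joins. AGCT, a palindrome and thus alike on both strands, occurred 5.64 times per kb of prey in dispersed joins, 32.3 in acceptor joins, 68.0 near the bait and 26.4 in recurrent bins.

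The dispersed joins lay on every chromosome but 12, which the rule leaves out. They occupied 11967 bins of 100 kb, of which 7650 held 1 join, 2949 held 2 and 978 held 3. The prey was on the plus strand in 9030 joins (49.6%, 95% Wilson interval 48.9 to 50.4, counting error only). Over the libraries the plus share ran from 46.1% to 55.6%, and over the autosomes from 47.7% to 51.5%. The median distance from a join to the next was 38481 bases, and 946 joins (5.20%) lay within 1 kb of another. Of 17992 distinct prey positions with strand, 27 occurred in more than 1 library. At the threshold of the rule, chr9:98500001-98600000 held 7 joins from 6 libraries and was kept. The bin chr10:39800001-39900000 held 8 joins from 6 libraries and was left out. Likewise chr16:93600001-93700000 held 7 joins from 7 libraries and was kept, and chr15:74700001-74800000 held 8 from 6 and was not. In all, 54 kept bins had joins from 5 or more libraries.

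Chromosome X had the fewest joins per length. Measured over the span between the outermost dispersed joins of each chromosome, X had 2.66 joins per Mb, against an autosome median of 7.47. Its density was 0.356 of that median, and it was the lowest chromosome in 20 of 21 libraries. Y had 4 joins in 3 libraries. Among the autosomes the range was narrow, with a ratio of 1.52 between the highest and the lowest. Chromosomes 11 (10.1 joins per Mb), 15 (9.59) and 16 (9.52) were highest, and chromosomes 3 (6.64), 8 (6.72) and 18 (6.74) lowest. IaD gave 9699 of the 18191 joins. Without it, chromosomes 11 (4.93 joins per Mb), 15 (4.29) and 14 (4.198) were highest, with 16 at 3.95, and chromosomes 18, 3 and 8 (3.15 to 3.23) were the lowest autosomes. Mean microhomology varied little between autosomes, at 2.24 to 2.63 bases. Density within chromosomes was counted in windows, which hold fewer joins, so their range cannot be set against that of the autosomes. The 209 full autosomal windows of 10 Mb held 17 to 152 joins, with a median of 78 and quartiles of 59 and 91. The windows at 60 to 70 Mb and 70 to 80 Mb of chromosome 14 held 152 and 135 joins, from 20 libraries each. The window at 40 to 50 Mb of chromosome 7 held 17. The counts per window in IaD and in CH12F3NCD correlated with Spearman's rho of 0.620 and Pearson's r of 0.616. This is a description across 209 windows, of which neighbours share a chromosome and are not independent.

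The share of each chromosome in the dispersed joins was compared between groups by limma on log2(percent plus a pseudocount worth 0.5 join), with 19 chromosomes tested. No chromosome (0%) differed in IaD against CH12F3NCD, i3CBEc against CH12F3NCD, IaD-i3CBEc against i3CBEc, or i3CBEc-3'CBEsD against i3CBEc. The counts at an unadjusted p under 0.05 were 0, 0, 1 and 3 in that order, and the exact permutation test per chromosome also called 0 in each. In IaD-i3CBEc against IaD, 1 of 19 (5.26%) was called. Chromosome 16 took 4.24%, 2.81% and 2.97% of the dispersed joins of the 3 IaD-i3CBEc libraries (37, 18 and 16 joins). The 6 IaD libraries had 5.53%, 5.53%, 4.94%, 5.39%, 5.99% and 5.997%, all above those. The means were 3.34% ± 0.785 and 5.56% ± 0.395 (SD), with a log2 difference of -0.73 (SE 0.16, limma adjusted p = 0.00336). Within run 490 the difference was -0.80 (limma adjusted p = 0.00174). The exact permutation test per chromosome did not call it (adjusted p = 0.113), nor did the fit without library 2 of IaD-i3CBEc (log2 -0.62, limma adjusted p = 0.0540). Chromosome 16 held 4.30% of the dispersed joins in i3CBEc-3'CBEsD, 4.19% in i3CBEc and 5.27% in CH12F3NCD.

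**Figure D4:**
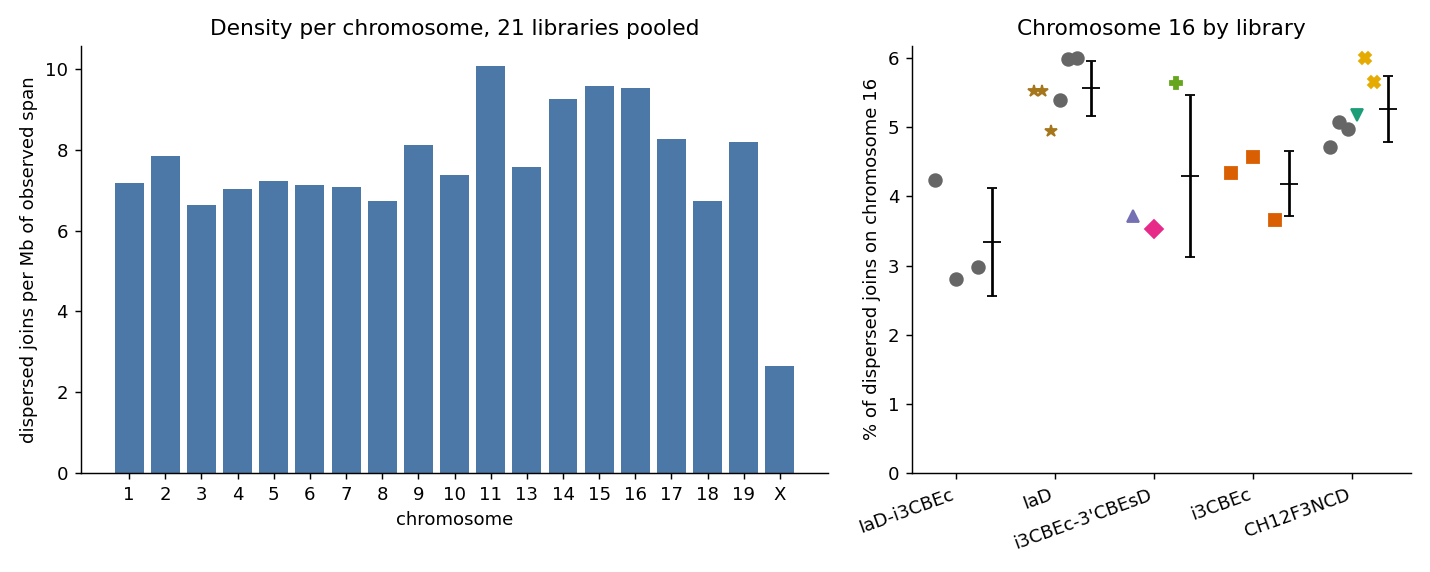
Dispersed joins per Mb of observed span on each chromosome, 21 libraries pooled (left), and the percent of each library's dispersed joins on chromosome 16 by group (right; points are libraries, with the marker and colour of their sequencing run, and bars are the mean and SD). X stands at 2.66 per Mb against an autosome median of 7.47, and the 3 IaD-i3CBEc libraries (2.81% to 4.24%) lie below the 6 IaD libraries (4.94% to 5.997%).

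The series asks what loop extrusion contributes to class switching, and the comparisons between genotypes show how much of all joining went to dispersed sites. Comparisons that share a group (CH12F3NCD, IaD or i3CBEc) are not independent of each other. Dispersed joins took a larger share of all joins in IaD than in CH12F3NCD. The 6 IaD libraries had 73.2%, 74.6% and 73.5% (run 482) and 50.6%, 48.4% and 50.7% (run 490). The CH12F3NCD libraries had 39.2%, 39.8% and 39.4% (run 490), 45.6% (run 371) and 20.2% and 21.8% (run 451). The groups did not overlap, with means of 61.8% ± 13.1 and 34.3% ± 10.6 (SD, n = 6 each), a ratio of 1.80. A two-sided exact permutation test gave p = 0.00216, and 0.00866 after adjustment over the 4 measures of a comparison. Within run 490 the difference was smaller, at 49.9% ± 1.31 in IaD and 39.5% ± 0.279 in CH12F3NCD (SD, n = 3 each), without overlap, and the exact p of 0.1 is the smallest that 3 against 3 allows. A share falls when other joins rise, and the result depended on what dispersed joins were set against. In run 490, acceptor joins numbered 687, 741 and 793 in CH12F3NCD libraries of 1623, 1880 and 1886 joins. They numbered 225, 286 and 189 in IaD libraries of 1539, 1760 and 1315 joins. Joins within 10 kb of the bait went the other way, at 235, 327 and 275 in CH12F3NCD and 446, 518 and 392 in IaD. Per 100 joins within 10 kb of the bait, IaD had 373 ± 226 dispersed joins and CH12F3NCD 208 ± 90.8 (SD, n = 6 each, exact permutation p = 0.143). Within run 490 the direction turned, with 170 ± 5.10 in IaD and 257 ± 24.2 in CH12F3NCD (SD, n = 3 each, exact permutation p = 0.1). Run and group cannot be told apart outside run 490.

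Inserting the 3 CBEs in Iα-deleted cells went with a smaller dispersed share. IaD-i3CBEc had 40.96%, 40.7% and 37.2%, all below the IaD libraries, with means of 39.6% ± 2.10 (SD, n = 3) and 61.8% ± 13.1 (SD, n = 6). The difference of -22.2 points had an exact permutation p of 0.0238 and missed the threshold after adjustment (0.0952). Within run 490 it was -10.3 points, the groups again not overlapping, and per 100 joins within 10 kb of the bait IaD-i3CBEc had 102 ± 9.70 dispersed joins and IaD 170 ± 5.10 (SD, n = 3 each). In cells with Iα the values were 34.4% ± 2.91 in i3CBEc (SD, n = 3) and 34.3% ± 10.6 in CH12F3NCD (SD, n = 6; exact permutation p = 0.988), and these groups share no run. The difference between the 2 insertion effects was -22.3 points (permutation of labels within each background, p = 0.0354, adjusted 0.142) and did not pass. Between IaD-i3CBEc and i3CBEc, both carrying the insertion, the values were 39.6% ± 2.10 and 34.4% ± 2.91 without overlap (exact permutation p = 0.1, the smallest possible for 3 against 3). Per 100 joins within 10 kb of the bait the direction turned, with 102 ± 9.70 in IaD-i3CBEc and 168 ± 24.8 in i3CBEc (SD, n = 3 each), and these groups share no run. The 3 i3CBEc-3'CBEsD libraries had 15.2%, 37.3% and 6.99%, each from its own run, against 34.8%, 31.3% and 37.1% in i3CBEc (exact permutation p = 0.4). They spread more widely than the libraries of either other group of 3 (SD 15.7 points, against 2.10 and 2.91).

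**Figure D5:**
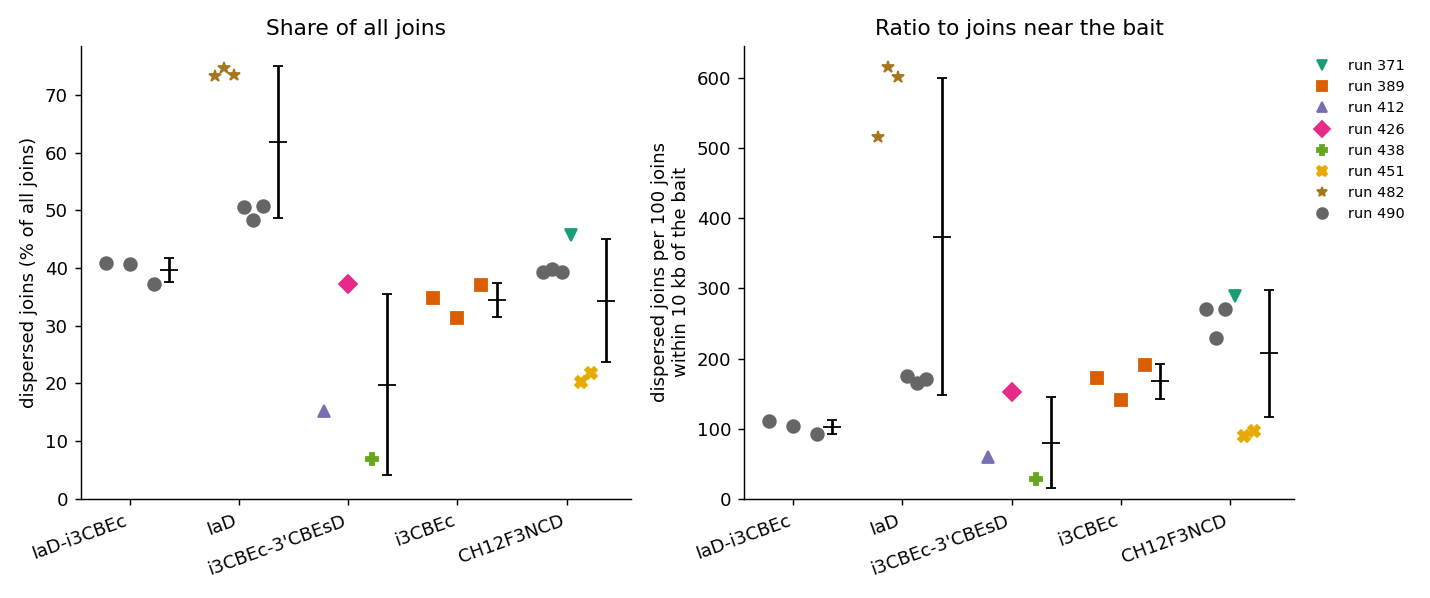
Dispersed joins of each library as a percent of all its joins (left) and per 100 joins within 10 kb of the bait (right), by group, with the marker and colour giving the sequencing run and bars giving the mean and SD. IaD lies above CH12F3NCD on the left in every library (48.4% to 74.6%, against 20.2% to 45.6%), while on the right the run 490 libraries of IaD (mean 170) lie below those of CH12F3NCD (mean 257).

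No comparison between genotypes called a difference in the form of the dispersed joins. Mean microhomology was 2.45 ± 0.172 bases in IaD-i3CBEc, 2.44 ± 0.157 in IaD, 2.08 ± 0.295 in i3CBEc-3'CBEsD, 2.57 ± 0.168 in i3CBEc and 2.36 ± 0.197 in CH12F3NCD (SD over libraries). None of the 5 comparisons passed the exact permutation test after adjustment, nor did any for the plus-strand share. Inserted bases were found in 6.69% ± 1.15 of dispersed joins in IaD and 9.18% ± 2.69 in CH12F3NCD (SD, n = 6 each), with an exact permutation p of 0.0368 that became 0.0736 on adjustment. In i3CBEc-3'CBEsD they were found in 12.4%, 10.0% and 29.0%, all above the 3 i3CBEc libraries, whose mean was 6.96% ± 0.790 (SD), and its microhomology lay below that of i3CBEc without overlap. Both differences had the smallest exact permutation p that 3 against 3 allows, 0.1. The excess of microhomology over acceptor joins held in each genotype, at 0.902 bases in IaD-i3CBEc, 0.761 in IaD, 0.463 in i3CBEc-3'CBEsD, 0.822 in i3CBEc and 0.627 in CH12F3NCD.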

How the data were processed

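Per the labels, CSR-HTGTS-Seq libraries were made from genomic DNA, and mm9 and Bowtie2 are given in the submitters' processing notes. The deposited tables hold 1 line per junction, with mm9 positions and read coordinates in bases. Their MH column is a score deposited by the authors, equal to the inserted bases (positive) or minus the shared bases (negative). No deposited line carries a filter flag. Filter settings and molecular identifiers are not given in the sources used here, so PCR copies that differ in sequence were not detectable.

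Of 43605 junctions, 3075 duplicated between libraries were removed. In the insertion libraries a shift of 99 bases on the bait was removed. Groups follow the labels' genotypes. Differences in shares per library were tested by exact permutation (two-sided), classes of join by sign-change permutation, and chromosomes and bait bases by limma 3.58.1 in R 4.3.3, with Benjamini-Hochberg adjustment and a threshold of 0.05. Chromosomes needed a mean of 5 joins per library. Class tests used libraries with at least 10 joins in both classes. Scripts were tested on simulated data. Bait bases were analysed after the data were seen. Members and lists were chosen with earlier results of these data known. Named chromosomes are the 3 densest, the 3 sparsest and any called. Positions were not annotated with genes. Same-numbered libraries of IaD-i3CBEc and i3CBEc correlated in their chromosome shares (0.187 to 0.431, as deviations from group means, 3 pairs, no shared run), and a replicate block changed no call there. Alternatives included other bin rules, prey of at least 50 bases, repeated joins counted once and leaving out each library.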

Additional observations from a re-analysis of the deposited data

How the results depend on the processing

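The larger dispersed share of IaD against CH12F3NCD kept its sign under each single change of setting, and turned only when run 490 alone was set against joins near the bait. It was 10.4 points in run 490 only (exact permutation, adjusted p = 0.200), 27.5 with the replicate block (adjusted p = 0.125) and 166 per 100 joins within 10 kb of the bait (adjusted p = 0.286), none past the threshold, and 24.7 to 30.2 points with each library left out. The block here pairs libraries by a shared number alone. Deviations of same-numbered libraries from their group means in chromosome shares correlated from -0.475 to 0.312 in that comparison, and at least 1 pair fell below 0 in each of the others but IaD-i3CBEc against i3CBEc. Against joins near the bait, the share differences of i3CBEc against CH12F3NCD and of IaD-i3CBEc against i3CBEc were -39.8 and -65.5. The difference of i3CBEc against CH12F3NCD was also -0.0755 under the stricter bin rule (bins of at least 5 joins and 3 libraries left out), -1.70 outside the 4 stretches, -5.06 with the block and -2.75 to 2.34 with a library left out.

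The other changes of sign were in differences near 0 that never passed a test. For the plus-strand share they were 0.259 (IaD-i3CBEc against IaD, no bins left out), -0.134, -0.0432 and -0.0610 (IaD against CH12F3NCD, with repeated joins counted once, prey of at least 50 bases and run 490 only), -0.774 (IaD-i3CBEc against i3CBEc, prey of at least 50 bases) and 0.295 (i3CBEc against CH12F3NCD, outside the stretches). With a library left out these 4 comparisons ran from -2.04 to 0.266, from -0.654 to 0.856, from -0.947 to 1.71 and from -2.27 to 0.184. Mean microhomology in IaD-i3CBEc against IaD was -0.00668 with no bins left out, -0.148 outside the stretches, -0.120 in run 490 and -0.0892 to 0.0813 with a library left out. The insertion share was -0.294 (stricter bin rule) and -0.780 (block) in IaD-i3CBEc against IaD, and 0.821 (no bins left out) and 1.39 (outside the stretches) in IaD-i3CBEc against i3CBEc, with -0.331 to 0.453 and -0.506 to 0.226 when a library was left out. In IaD against CH12F3NCD it passed without library 3 or 4 of CH12F3NCD or library 2 of IaD, in a range of -2.90 to -1.51.

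The chromosome called in IaD-i3CBEc against IaD, 16, gave counts of 0 or 1 with a library left out, 0 under the exact permutation test and 0 with the block (log2 -0.65, limma adjusted p = 0.0676). In i3CBEc-3'CBEsD against i3CBEc the count was 0 to 4, with chromosomes 17 and 19 lower without its library 1, and chromosomes 7 (higher), 17, 18 and 19 (lower) without its library 2, when its library 3 of 124 joins is 1 of 2 left. A setting limited to joins ending outside the 4 stretches was added after the data were seen. There the direct-join difference was -2.94 points to acceptor joins, 0.474 to joins near the bait and 0.0755 to recurrent bins. Only the first passed the threshold. The bait end differences were -0.549, -1.10 and -0.802 bases. None passed, which decides nothing, since the stretches were chosen by bait end. With direct joins only, whose bait end counts no shared bases, 14 bait bases were called higher, against 24 of 95 with all joins. The limit of 50 joins per base was applied anew to the direct joins. The number of bases that met it is not given here, so the counts cannot be set against each other. Within the 4 stretches, also added later, the microhomology difference to acceptor joins was -0.0201 bases. That split is not independent of microhomology, since a bait end counts shared bases. The other microhomology differences between classes, and the insertion differences, kept direction and call under the settings run. Comparisons of 3 against 3 libraries cannot go below an exact p of 0.1.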

Other observations

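The long inserts of dispersed joins had a different content from those of acceptor joins. Of 715 dispersed joins with 14 or more inserted bases, 86 (12.03%) held a switch repeat unit, GAGCT or GGGCT or their complements AGCTC and AGCCC, against 129 of 188 such acceptor joins (68.6%). A run of C alone, 14 to 28 bases long, made up 26 of the dispersed inserts, in 12 libraries. These are values with no test. The origin of the inserts was not tested.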
